A study of Rattus norvegicus with 547 samples.

Results

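C.I. Direct Black (abbreviated CIDB in the sample labels) was tested on cultivated hepatocytes from male Wistar rats at 3 concentrations, 1.92, 5.76 and 17.28 µM. Its arrays were chosen by their titles and number 18 of the 547 arrays of the series: 3 treated and 3 solvent control arrays at each concentration, each with its own controls. The hepatocytes were primary cells in sandwich culture, incubated for 24 h. Treated and solvent control wells shared a 6-well dish, and the 3 replicates came from different rats on different experimental days. The other arrays used here come from the other 28 compounds with their solvent controls (495 arrays), among them 3-methylcholanthrene (3-MC, 16 arrays), and from 34 untreated T0 cultures collected when incubation began.

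C.I. Direct Black names azo dyes, a class of colorants whose azo bonds can be split by reduction to release aromatic amines, and the submitters class it as genotoxic. Hepatocytes carry the enzymes that activate and clear such compounds, which makes them a common cell for tests of this kind. 3-MC, a polycyclic aromatic hydrocarbon, is a standard agonist of the aryl hydrocarbon receptor, a transcription factor that turns on enzymes of foreign compound metabolism. The submitters class 3-MC as a non-carcinogen in this series.

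Expression was measured on Affymetrix arrays as RMA values on the log2 scale, in which a difference of 1 is a 2-fold change. The table used here gives each probe set by its ID, and no table pairing those IDs with genes was used. Probe sets are therefore described by ID and value, and neither gene groups nor hepatocyte markers could be read. Only array controls carry a gene's name. Beta-actin probes averaged 10.57 ± 0.18 in cultures treated at 17.28 µM and 10.77 ± 0.24 in their controls (SD, n = 3 each), and GAPDH probes averaged 11.24 ± 0.24 in the treated cultures and 11.41 ± 0.09 in the controls. Both differences were smaller than the larger SD of the pair. By dish, GAPDH was lower in each treated culture (differences of -0.34 to -0.05), while beta-actin differed by -0.50 to 0.19. The median of the 18 arrays ran between 5.41 and 5.52.

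The response grew steeply with concentration. A probe set was called where limma's adjusted p over the 31042 probe sets tested was under 0.05. At 1.92 µM 1 probe set passed (0.00322% of those tested), and at 5.76 µM 6 did (0.0193%), 5 of them rises. At 17.28 µM 3282 passed, 10.6% of those tested. Of these, 2243 rose (7.23%) and 1039 fell (3.35%). At an unadjusted p under 0.05 the counts were 2279 at 1.92 µM, 1212 at 5.76 µM and 6969 at 17.28 µM, so the lowest concentration had more such probe sets than the middle one.

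Most changes at 17.28 µM were small, and the large ones were rises. The median called rise was 0.53 and the median called fall -0.51 on the log2 scale, and 986 rises and 505 falls were smaller than 0.5. Rises of at least 2-fold numbered 145, against 74 falls of that size. Past 4-fold there were 11 rises and 0 falls. Over all probe sets tested the median difference was -0.02. All 3 treated arrays lay above all 3 control arrays in 2184 of the 2243 rises (97.4%) and below them in 999 of the 1039 falls (96.2%). Over all probe sets tested, 14.4% had such a separation upward and 11.9% downward, and these counts come from the contrast that made the calls.

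The excess of rises over falls depended on 1 dish and on the scaling. Rises made up 68.3% of the calls with the values as deposited, 57.3% after quantile normalization (3476 calls) and 75.5% with each array centred on its median (3090 calls). Control replicate 1 at 17.28 µM correlated least with the other arrays of the compound, at a median of 0.988. Without that dish 2440 probe sets were called and 55.1% of them rose. Without replicate 2 at every concentration the calls at 17.28 µM dropped to 800, of which 554 rose. The bacterial poly-A transcripts that are added to the RNA before labelling also differed at this concentration. The dap transcript measured 9.26 to 9.87 in treated arrays and 8.26 to 9.10 in control arrays, and lys, thr and phe were likewise higher in every treated array, by 0.76, 0.77 and 0.62 on average. At 5.76 µM their differences lay between -0.18 and 0.03. The part of these control transcripts in the calls was not tested.

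The probe set with the largest measured rise at 17.28 µM read 6.82, 6.86 and 7.21 in treated cultures, against 3.41, 3.26 and 3.20 in their controls. The groups were far apart. The control values lie near the bottom of the range of all arrays, which starts at 2.00, and whether they were above background was not tested. The measured log2 fold change was 3.67 ± 0.18 (SE, n = 3 dishes), with a limma adjusted p of 4.17e-08. At 5.76 µM the treated arrays read 3.08, 3.92 and 3.75 and the controls 3.67, 3.42 and 3.12, which overlap. At 1.92 µM the treated arrays read 3.11, 3.31 and 3.39 and the controls 3.22, 3.27 and 3.62, which overlap as well. The effect at 17.28 µM exceeded that at 5.76 µM by 3.49 ± 0.26 (limma adjusted p = 2.28e-05).

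Probe set 1393739_at rose as well at 17.28 µM, but its dishes differed widely. It measured 8.33, 6.50 and 5.41 in treated cultures and 4.32, 3.58 and 3.77 in controls. The log2 fold change was 2.86 ± 0.37 (SE, limma adjusted p = 0.000181), with dish differences between 1.64 and 4.01. At 1.92 µM it pointed the other way, with 3.90, 3.03 and 3.28 in treated cultures and 3.87, 5.16 and 4.83 in controls. That difference of -1.22 did not pass the test (limma adjusted p = 0.515). The control values of this probe set thus ran between 3.35 and 5.16 over the 3 concentrations.

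Falls were smaller and 1 control array carried much of the largest. Probe set 1371209_at measured 6.49, 6.36 and 6.29 in cultures treated at 17.28 µM, against 9.88, 7.40 and 7.47 in controls. The high value is again control replicate 1. The log2 fold change was -1.87 ± 0.33 (SE, limma adjusted p = 0.00177) with all dishes and -1.11 without that dish at 17.28 µM (limma adjusted p = 0.00297). The level of this probe set also varied widely among arrays given no compound. It ran from 2.47 to 9.17 over the T0 cultures, and the 2 solvent controls of 3-MC at 5.76 µM read 2.80 and 10.95. Probe set 1377375_at measured 7.03, 6.79 and 6.58 in treated cultures and 7.99, 8.75 and 8.85 in controls. Its log2 fold change was -1.73 ± 0.18 (SE, limma adjusted p = 3.23e-05), and control replicate 1 stood lowest here, nearest to the treated arrays. At 5.76 µM the fold change of 1377375_at was -0.27 and at 1.92 µM 0.03, neither of which passed the test.

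**Figure D1:**
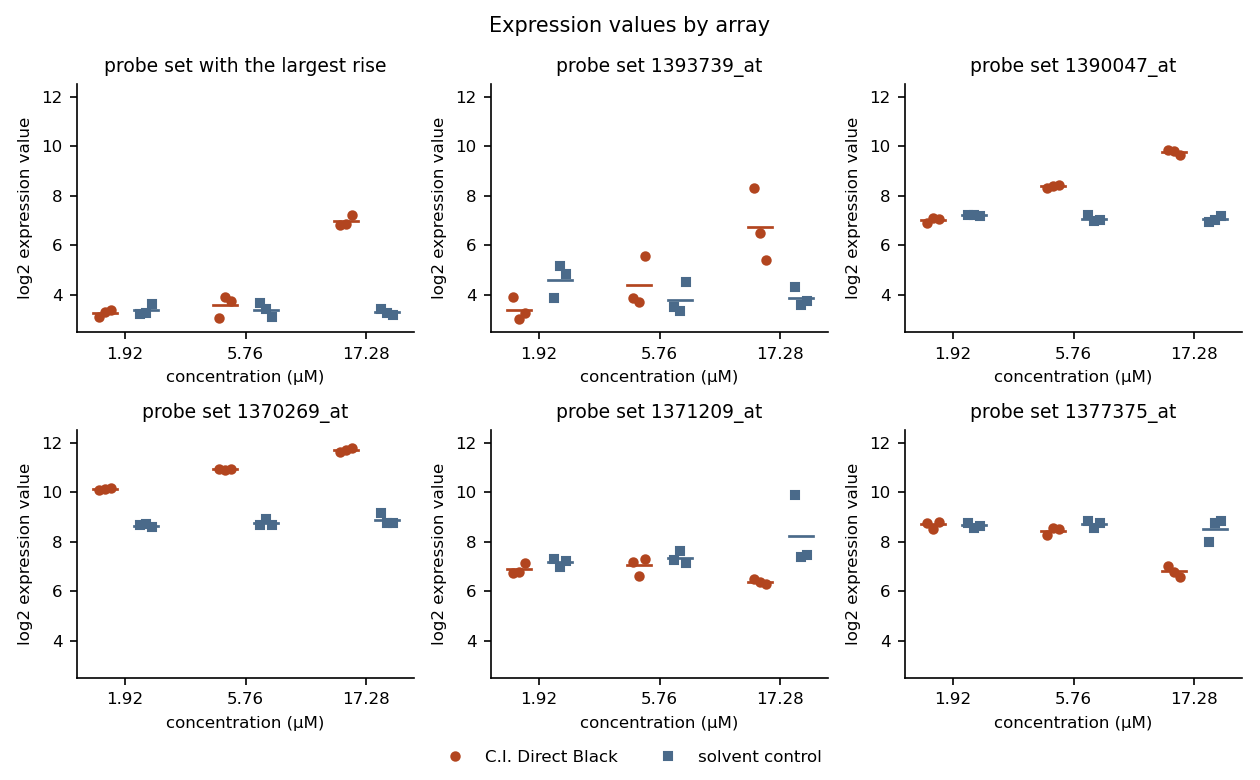
Log2 expression value of 6 probe sets in each of the 18 arrays by concentration in µM, with treated arrays (circles) left of solvent control arrays (squares) and a bar at the mean of 3. Probe set 1370269_at lies higher in treated arrays at all 3 concentrations, 1390047_at from 5.76 µM on, and the probe set with the largest rise at 17.28 µM; control replicate 1 of 1371209_at stands at 9.88.

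Probe set 1370269_at was the only 1 called at all 3 concentrations. At 1.92 µM it measured 10.10, 10.13 and 10.16 in treated cultures and 8.66, 8.70 and 8.58 in controls. At 5.76 µM it measured 10.96, 10.90 and 10.96 in treated cultures and 8.69, 8.93 and 8.67 in controls. At 17.28 µM it measured 11.63, 11.72 and 11.78 in treated cultures and 9.16, 8.74 and 8.75 in controls. The groups were apart at each concentration and treated replicates lay close together, with SDs of 0.03, 0.04 and 0.07. The log2 fold changes were 1.48, 2.17 and 2.83, each with an SE of 0.12, and the limma adjusted p-values were 8.21e-05, 4.3e-07 and 5.3e-09. The effect at 17.28 µM exceeded that at 1.92 µM by 1.35 ± 0.16 (limma adjusted p = 0.000402), while neighbouring concentrations did not differ past the threshold (limma adjusted p = 0.0606 for 17.28 over 5.76 µM and 0.289 for 5.76 over 1.92 µM).

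Probe set 1390047_at changed from the middle concentration on. At 1.92 µM it measured 6.91, 7.09 and 7.08 in treated cultures and 7.24, 7.23 and 7.19 in controls, a difference of -0.19 that did not pass the test. At 5.76 µM it measured 8.31, 8.41 and 8.45 in treated cultures and 7.21, 7.0 and 7.02 in controls. At 17.28 µM it measured 9.83, 9.81 and 9.65 in treated cultures and 6.95, 7.02 and 7.18 in controls. The log2 fold change was thus 1.31 ± 0.11 at 5.76 µM and 2.72 ± 0.11 at 17.28 µM, and each step upward passed the test of the difference (limma adjusted p = 0.00235 and 0.000491). The first step was not called without replicate 2, without replicate 3 or with a trended and robust spread, and the rise at 5.76 µM was not called without replicate 2 (1.26, limma adjusted p = 0.0884). The other 3 rises called at 5.76 µM measured 0.70 to 1.11 on the log2 scale there and 0.71 to 2.15 at 17.28 µM, where all 3 were called too.

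The single fall at 5.76 µM, probe set 1368247_at, was less firm. It measured 11.17, 11.28 and 11.27 in treated cultures and 11.74, 11.96 and 12.13 in controls, a log2 fold change of -0.70 ± 0.10 (SE, limma adjusted p = 0.0403). The call was lost without the pairing by dish (limma adjusted p = 0.0893) and in 7 other alternative fits. At 17.28 µM the same probe set measured 11.05, 10.96 and 10.81 in treated cultures and 12.51, 12.44 and 12.14 in controls, and the fall of -1.42 ± 0.10 was called (limma adjusted p = 1.65e-06).

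The probe sets called at 17.28 µM were followed at the lower concentrations, whose arrays took no part in their fold changes, though all 3 concentrations share 1 estimate of the spread. Of the 2243 rises, 1814 (80.9%) lay above 0 at 5.76 µM, where 49.7% of all probe sets did. At 1.92 µM only 640 (28.5%) lay above 0, where 52.2% of all did. The median of these rises was -0.07 at 1.92 µM, 0.09 at 5.76 µM and 0.53 at 17.28 µM. Of the 1039 falls, 745 (71.7%) lay below 0 at 5.76 µM and 652 (62.8%) at 1.92 µM, where 50.3% and 47.8% of all probe sets did. Probe sets that rose at the top concentration thus lay mostly below their controls at the lowest, by a small amount. The 95th percentile of whole arrays shifted in the same directions. Treated minus control, it averaged 0.14 at 17.28 µM, 0.01 at 5.76 µM and -0.08 at 1.92 µM, with dishes at 1.92 µM between -0.09 and -0.07. The part of this shift in the values of the followed probe sets was not tested.

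**Figure D2:**
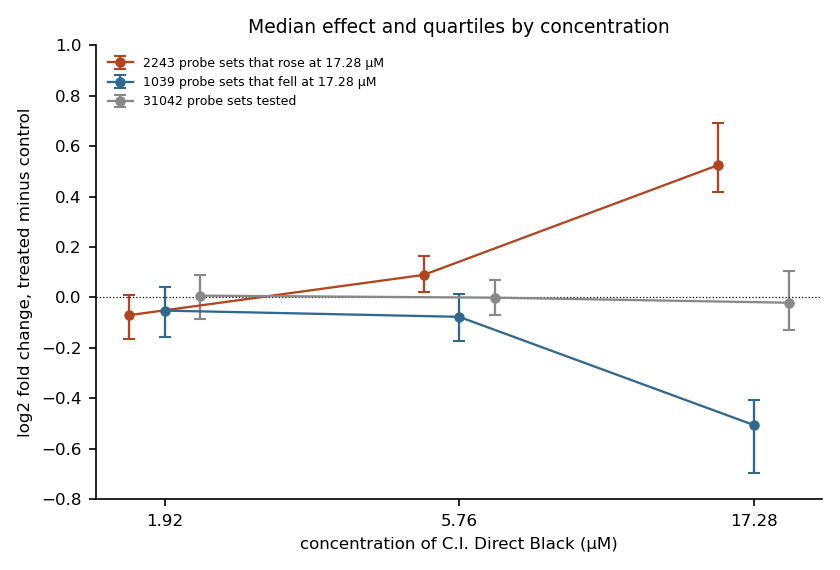
Median log2 fold change, treated minus control, by concentration in µM for the 2243 probe sets that rose at 17.28 µM, the 1039 that fell and all 31042 tested; bars span the quartiles. The rises stand at -0.07, 0.09 and 0.53 and the falls at -0.05, -0.08 and -0.51 from the lowest concentration to the highest.

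The concentrations differed from each other when the difference itself was tested. Between 17.28 and 1.92 µM 1925 probe sets differed (6.2% of those tested), 1516 of them with a higher effect at 17.28 µM (4.88%) and 409 with a lower one (1.32%). Between 17.28 and 5.76 µM 525 differed (1.69%), 352 with a higher effect at 17.28 µM (1.13%) and 173 with a lower one (0.557%). Between 5.76 and 1.92 µM 5 differed (0.0161%), all with a higher effect at 5.76 µM. Without replicate 2 these counts were 40, 5 and 0. Without replicate 1 the count between 17.28 and 5.76 µM was 1013, and only 317 of those were higher at 17.28 µM.

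The largest differences between the top and the lowest concentration joined opposite signs. Probe set 1393739_at differed by 4.07 ± 0.52 and probe set 1394330_at by 4.02 ± 0.78 on the log2 scale (SE, limma adjusted p = 0.000548 and 0.00702). At 17.28 µM 1394330_at measured 9.84, 9.64 and 8.25 in treated cultures and 8.03, 5.30 and 6.39 in controls. At 1.92 µM it measured 7.20, 5.41 and 5.50 in treated cultures and 6.45, 7.79 and 7.93 in controls. The groups were apart at 17.28 µM by a narrow margin and overlapped at 1.92 µM. At 1.92 µM the dish differences were 0.03, -2.13 and -1.55 for 1393739_at and 0.75, -2.38 and -2.43 for 1394330_at. The beta-actin 3' probe minus the 5' probe, an array control measure, was higher in treated arrays at 1.92 µM by 0.297 on average. By dish this ran from -0.035 in replicate 1 to 0.484 in replicate 3. At 17.28 µM it averaged -0.051. The part of this control measure in the opposite signs was not tested. Without replicate 2 the difference of 1394330_at was no longer called (limma adjusted p = 0.193). The same held for 1393739_at (limma adjusted p = 0.0628). Among falls, probe set 1387877_at measured 7.99, 7.80 and 7.60 in cultures treated at 17.28 µM and 9.64, 9.33 and 9.56 in controls, with no change past the threshold at 1.92 µM, and the effects differed by -1.74 ± 0.17 (SE, limma adjusted p = 7.76e-05).

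Called probe sets lay more often in the upper part of the signal range. Of the 6246 probe sets with a mean under 4 on the log2 scale over the 18 arrays, 1.5% were called at 17.28 µM. The share was 4.98% between 4 and 6, 16.9% between 6 and 8, 29.8% between 8 and 10 and 27.3% at 10 or more. Falls of at least 2-fold were absent under 4 and numbered 19 of the 1083 probe sets at 10 or more, where 3 rises reached that size. Probe sets whose ID ends in _x_at, which can bind more than 1 transcript, were called in 10.2%, close to the 10.5% of plain _at probe sets.

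**Figure D3:**
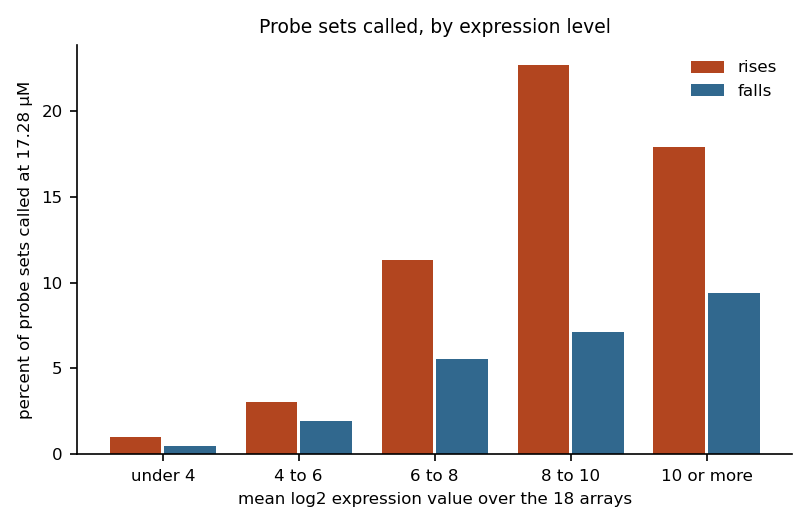
Percent of probe sets called at 17.28 µM, rises left and falls right, by mean log2 expression value over the 18 arrays. Rises run from 1.01% under 4 to 22.7% between 8 and 10, and falls from 0.496% under 4 to 9.42% at 10 or more.

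Against the other 28 compounds, each taken at its highest concentration, 18 probe sets had a C.I. Direct Black effect outside the spread between compounds (0.058% of those tested, limma adjusted p under 0.05). All 18 were rises, and C.I. Direct Black had the highest effect of the 29 compounds in each, which largely follows from the call itself. At an unadjusted p under 0.05 there were 617 such probe sets, 533 of them higher with C.I. Direct Black. The differences ran between 1.03 and 3.51 on the log2 scale. All 18 also lay above 0 at 5.76 µM, between 0.02 and 1.31, and 13 lay below 0 at 1.92 µM. No other compound was called as a rise for 7 of the 18, and 52.1% of all probe sets tested likewise rose with no other compound. C.I. Direct Black enters this test as 1 value that is assumed to vary like those of the other compounds, and without replicate 1, 2 or 3 in every compound the count was 7, 10 or 15.

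The top of these is the probe set with the largest rise described above. It differed by 3.51 ± 0.56 (SE, limma adjusted p = 0.00304). Its effect was 3.67 with C.I. Direct Black, and the other compounds ran from -0.80 with NNM to 2.29 with Clon (clonidine). Probe set 1393739_at differed by 2.83 ± 0.34 (SE, limma adjusted p = 3.36e-05), and its other compounds ran from -1.19 to 0.56. Without replicate 1 in every compound this call was lost (limma adjusted p = 0.0873). Against the other 8 genotoxic compounds alone 18 probe sets were called as well, of which 9 are among the 18 found against all.

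**Figure D4:**
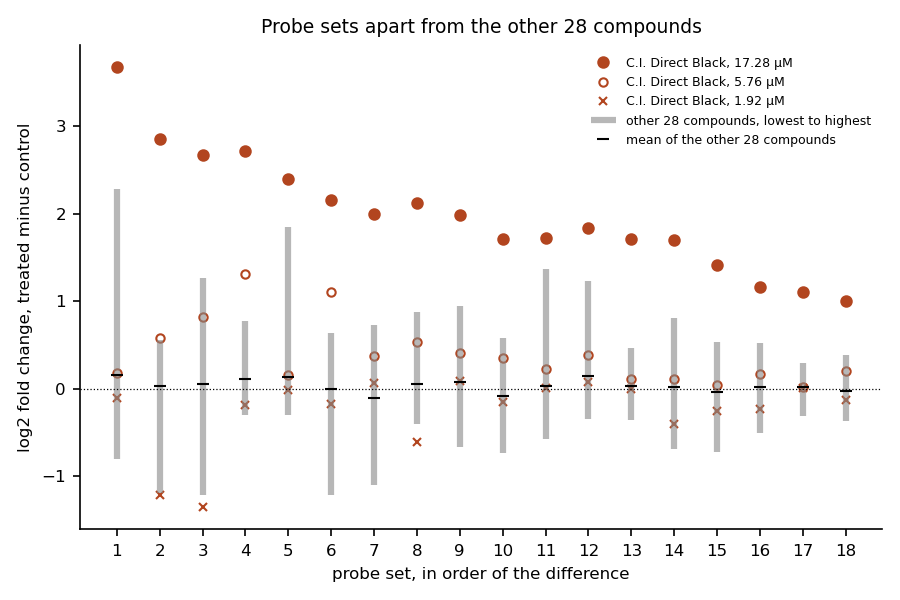
Log2 fold change, treated minus control, of the 18 probe sets apart from the other 28 compounds, in order of the difference. Filled circles are C.I. Direct Black at 17.28 µM, open circles at 5.76 µM and crosses at 1.92 µM; grey bars span the other compounds and the tick is their mean. Every filled circle lies above its grey bar, which largely follows from how these probe sets were chosen.

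The other 8 genotoxic compounds were set beside these effects. The probe set with the largest rise lay above 0 in 4 of them, between -0.80 and 0.55. Another probe set was chosen because earlier results of these data had shown it raised by genotoxic compounds. Its values in them are therefore a description, and it lay between 0.05 and 1.78 in the other 8. Among the compounds classed as non-carcinogens it was highest with Ibup (ibuprofen), followed by 3-MC at 0.96 and Nif at 0.69. With each of these it lay inside the range of the other 8 genotoxic compounds. With C.I. Direct Black at 17.28 µM it measured 7.17, 7.29 and 6.92 in treated cultures and 6.87, 6.79 and 7.17 in controls. The groups overlapped and the log2 fold change of 0.18 ± 0.13 did not pass the test (SE, limma adjusted p = 0.462).

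The calls at 17.28 µM overlapped with those of other compounds to very unequal degrees, each compound being tested against its own controls. The compound labelled Wy, classed as non-genotoxic and called in 16.3% of all probe sets, shared 1475 calls in the same direction, 44.9% of the C.I. Direct Black calls and 29.1% of its own, and had 101 in the opposite direction. DES (diethylstilbestrol), also classed as non-genotoxic and called in 9.03% of all, shared 970 (29.6% and 34.6%) and had 47 in the opposite direction. Ibup (ibuprofen), classed as a non-carcinogen and called in 17.1% of all, shared 890 (27.1% and 16.7%) and had 240 in the opposite direction. The genotoxic compounds did not run 1 way. NNM, called in 42.8% of all, shared 530 (3.99% of its own calls) and had 982 in the opposite direction (7.39%). MDA, called in 19.7% of all, shared 489 (7.99%) and had 790 in the opposite direction (12.9%). 2-NF, called in 4.32% of all, shared 385 (28.7%) and had 71 in the opposite direction (5.29%). NNK, called in 1.88% of all, shared 138 (23.6%) and had 32 in the opposite direction (5.47%). The number of calls differs widely between compounds, and no test of these overlaps was made.

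Falls were more widely shared than rises. Of the 1039 falls, 450 (43.3%) also fell in 5 or more other compounds, as did 4.73% of all probe sets, and 117 (11.3%) fell in none, where 66.3% of all fell in none. Of the 2243 rises, 151 (6.73%) also rose in 5 or more others, as did 0.986% of all, and 707 (31.5%) rose in none, where 52.1% of all rose in none. Of the same rises, 1572 (70.1%) fell with at least 1 other compound, as did 33.7% of all. All 74 falls of at least 2-fold were called as falls with at least 1 other compound, and 36 of the 145 rises of that size rose in no other.

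The T0 cultures give the level before incubation. Of the 2243 rises, 98 (4.37%) were at least 2-fold higher in the 34 T0 arrays than in the solvent controls of the other compounds after 24 h, as were 1.35% of all probe sets. At least 2-fold lower at T0 were 19 (0.847%), as were 0.451% of all. By sign alone, 60.9% of the rises were lower at T0 (median difference -0.10), against 50.5% of all. Of the 1039 falls, 28 (2.69%) were at least 2-fold higher at T0 and 26 (2.5%) at least 2-fold lower.

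3-MC was used at the same 5.76 µM (2 dishes) and 1.92 µM (3 dishes), which allows a comparison at equal concentration. The 2 pairs were tested in 1 fit, each adjusted over all probe sets. At 5.76 µM 100 probe sets differed (0.322%), 35 with a higher effect of C.I. Direct Black (0.113%) and 65 with a higher effect of 3-MC (0.209%). At 1.92 µM 60 differed (0.193%), 20 with a higher effect of C.I. Direct Black (0.0644%) and 40 with a higher effect of 3-MC (0.129%). All 16 arrays of 3-MC had medians between 5.25 and 5.31, below each of the 18 C.I. Direct Black arrays. Compound and whatever lies behind this gap in array medians cannot be told apart in these differences. Whether the gap marks a processing batch was not tested. With each compound's dishes weighted by their own spread the count at 5.76 µM was 46 and at 1.92 µM 49. Without replicate 2 the counts were 10 and 9, and without replicate 1 they were 37 and 19.

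**Figure D5:**
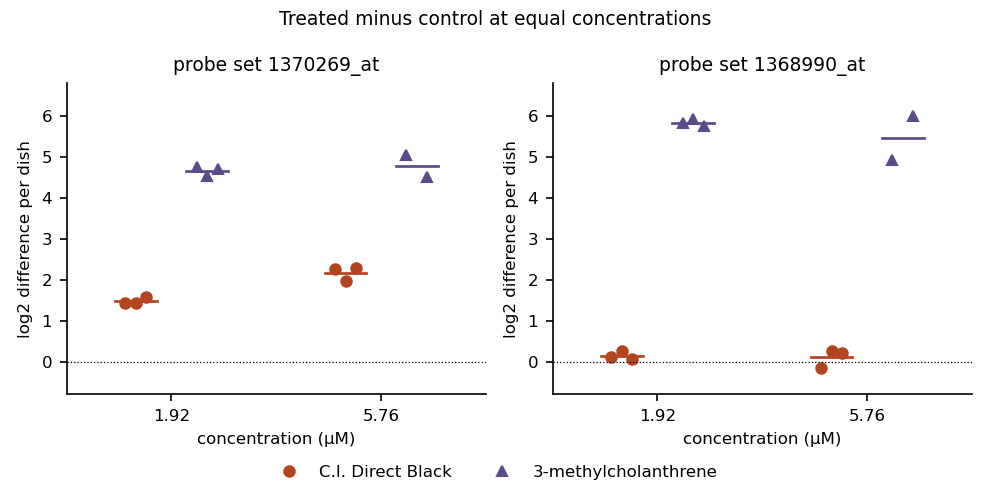
Treated minus control difference per dish on the log2 scale at 1.92 and 5.76 µM for 2 probe sets, with C.I. Direct Black (circles) left of 3-MC (triangles) and a bar at the mean. For 1370269_at both compounds lie above 0, and for 1368990_at the C.I. Direct Black dishes lie near 0 while 3-MC lies between 4.92 and 6.00.

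Probe set 1370269_at rose with both compounds, less with C.I. Direct Black. At 5.76 µM the dish differences were 2.27, 1.96 and 2.29 with C.I. Direct Black and 5.03 and 4.50 with 3-MC. At 1.92 µM they were 1.43, 1.43 and 1.58 with C.I. Direct Black and 4.75, 4.52 and 4.70 with 3-MC. The compounds differed by -2.59 at 5.76 µM (95% interval -3.03 to -2.15) and by -3.18 at 1.92 µM (-3.57 to -2.79), with limma adjusted p-values of 1.69e-06 and 1.08e-08. With 3-MC the mean effect was 4.69 at 0.64 µM, 4.66 at 1.92 µM and 4.76 at 5.76 µM, and with C.I. Direct Black 1.48 at 1.92 µM, 2.17 at 5.76 µM and 2.83 at 17.28 µM. The 3-MC-treated arrays averaged 13.65, 13.68 and 13.62 over their 3 concentrations, near the highest value of any array (14.60). Whether the signal was saturated there was not tested.

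Probe sets 1368990_at and 1368130_at showed the largest differences from 3-MC. For 1368990_at the dish differences at 5.76 µM were -0.14, 0.26 and 0.20 with C.I. Direct Black and 4.92 and 6.00 with 3-MC, a difference of -5.35 (95% interval -5.91 to -4.80, limma adjusted p = 2.23e-09). At 17.28 µM of C.I. Direct Black its log2 fold change was -0.10 ± 0.11 (SE, limma adjusted p = 0.666), with 6.41, 6.24 and 6.08 in treated cultures and 6.30, 6.33 and 6.39 in controls. For 1368130_at the dish differences at 5.76 µM were -0.01, 0.08 and 0.33 with C.I. Direct Black and 4.36 and 4.22 with 3-MC, a difference of -4.16 (95% interval -4.64 to -3.67, limma adjusted p = 8.35e-09). So 1370269_at moved with both compounds, and of the 2 compounds only 3-MC passed the test for 1368990_at and 1368130_at, at all 3 of its concentrations. With each compound at its highest concentration, 1370269_at was called as a rise in 8 of the other 28 compounds and as a fall in 6. Its effect with PBO (4.50) and Nif (2.86) also lay above that with C.I. Direct Black (2.83).

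The 3 probe sets named for a higher effect with C.I. Direct Black were lowered by 3-MC. The probe set with the largest of these differences averaged -0.44 with C.I. Direct Black and -2.66 with 3-MC at 5.76 µM, a difference of 2.22 (95% interval 1.37 to 3.07, limma adjusted p = 0.023), and this call was lost with weighted dishes (limma adjusted p = 0.0772), without replicate 1 (0.119) and without replicate 2 (0.582). At 1.92 µM it averaged -0.31 with C.I. Direct Black and -2.47 with 3-MC (limma adjusted p = 0.0128), a call lost without replicate 1, 2 or 3 (limma adjusted p = 0.0976, 0.387 and 0.159), with differences of 1.67 to 2.43. At 17.28 µM of C.I. Direct Black this probe set fell, by -1.18 ± 0.22 on the log2 scale (SE, limma adjusted p = 0.0029), a call lost without replicate 2 (limma adjusted p = 0.11). Probe set 1367631_at averaged -0.09 with C.I. Direct Black and -2.24 with 3-MC at 5.76 µM (limma adjusted p = 0.00235). At 17.28 µM of C.I. Direct Black it rose by 1.29 ± 0.16 (SE, limma adjusted p = 0.000108), and this was the highest effect on it among the 29 compounds. Its difference from the other 28 compounds, 2.23 ± 1.16 (SE), was not called. Probe set 1372264_at averaged 0.03 with C.I. Direct Black and -1.79 with 3-MC at 1.92 µM (limma adjusted p = 0.0108), a call lost without replicate 2 (limma adjusted p = 0.345) and without replicate 3 (limma adjusted p = 0.228).

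Over the wider set of probe sets raised by 3-MC, the effects of C.I. Direct Black were small. In the joint fit 768 probe sets rose with 3-MC at 5.76 µM (2.47% of those tested), by a median of 0.85, and 481 fell. With 3-MC fitted apart from C.I. Direct Black, rises and falls together numbered 121 (0.39%), so the longer list rests on the shared spread. Over the 768 probe sets the median effect of C.I. Direct Black at 5.76 µM was 0.08, and 71.9% lay above 0, where 49.7% of all did. In the joint fit 3 probe sets in all were called as rises with C.I. Direct Black at that concentration, and 2 of them were among the 768. At 17.28 µM of C.I. Direct Black 113 of the 768 rose (14.7%), where 7.23% of all did. Of the 481 falls with 3-MC, 82 also fell at 17.28 µM of C.I. Direct Black (17%), where 3.35% of all did. Of 3-MC at 1.92 µM, 242 probe sets rose (0.78%) and 275 fell (0.886%), and the median effect of C.I. Direct Black at 1.92 µM was 0.03 over those rises and -0.07 over those falls.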

How the data were processed

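The submitters deposited RMA expression values on the log2 scale, per the submitters' processing notes and the values themselves; no version of RMA is given in the sources used here. The table holds 31099 probe sets on 547 arrays. The 57 array control probe sets were left out. Treated minus control differences within dishes (same concentration and replicate number) were fitted with limma 3.58.1 in R 4.3.3 (lmFit, eBayes), the 3 concentrations sharing 1 estimate of the spread, with Benjamini-Hochberg adjustment. For the comparison with the other 28 compounds, each compound entered as its mean dish difference at its highest concentration. The scripts were tested on simulated data with log2 changes of 0.5, 1 and 2 in 67, 67 and 66 probe sets. For C.I. Direct Black minus 3-MC at 5.76 µM, 2.99%, 49.3% and 89.4% were recovered with own spread for each compound. There 19 unchanged probe sets were called, against 7 with 1 spread for both compounds. The highest concentration against control recovered 62.7%, 92.5% and 100%, with 5 unchanged calls. Against the other 28 compounds 4.48%, 46.3% and 90.9% were recovered, with 5 unchanged calls. Precision is limited by 3 arrays a group.

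The design text gives the pairing by dish and rat; of 9 correlations of the deviations of same-numbered treated and control arrays, 0 exceeded 0.1 (-0.304 to 0.0857). Members, lists and tests were chosen with earlier results of these data known. The gene lists and cell type markers prepared for this work could not be applied without gene names. Named probe sets are up to 2 largest called rises and falls of each comparison that moved 1 way in all dishes, plus 3 singled out from earlier results; the rule was written for genes and was applied to IDs after the files were seen. Alternatives were no replicate block, leaving out replicates, other scalings, a filter on dim probe sets and other estimates of the spread.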

Additional observations from a re-analysis of the deposited data

Results flagged for a closer look

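The effect of C.I. Direct Black differed between concentrations by a test of the difference itself: 1925 probe sets between 17.28 and 1.92 µM, 525 between 17.28 and 5.76 µM and 5 between 5.76 and 1.92 µM. It differed between compounds at equal concentration, with 100 probe sets called against 3-MC at 5.76 µM and 60 at 1.92 µM, where compound and the gap in array medians cannot be told apart. Against the other 28 compounds at their highest concentrations 18 probe sets were called.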

How the results depend on the processing

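The count at 17.28 µM was 3282, 1248 with the spread pooled over all compounds, 1892 with that concentration fitted alone, and 800 to 3210 with 1 replicate left out. All 3282 calls kept their sign without replicate 1, 2 or 3 and after quantile normalization, and 795 were still called without replicate 2. In 2231 of the 2243 rises and 1024 of the 1039 falls all 3 dishes at 17.28 µM moved 1 way. Leaving out a replicate could not turn the sign of those.
At 5.76 µM, 6 calls became 2 with a trended and robust, pooled or separate spread, and 1 to 216 with a replicate left out. At 1.92 µM, 1 call became 18 when fitted alone and 1 to 82 with a replicate left out.
The difference between 17.28 and 1.92 µM ran from 40 to 1903 with a replicate left out and was 450 with the pooled spread. That between 17.28 and 5.76 µM was 927 without the replicate block, 269 trended and robust, 113 pooled and 5 to 1013 with a replicate left out. That between 5.76 and 1.92 µM was 3 with centred arrays, 0 trended and robust, 1 pooled and 0 to 759 with a replicate left out.
Against the other compounds the count was 7 to 17 with a replicate left out. Against 3-MC at 5.76 µM it was 151 without the replicate block, 46 with weighted dishes and 10 to 118 with a replicate left out; at 1.92 µM it was 9 to 19. Without the block the calls at 17.28 µM numbered 4036, and those between 17.28 and 1.92 µM 2768. Quantile normalization moved the share of rises among the differences from 1.92 µM to 61.5%, against 78.8%, and from 5.76 µM to 55.4%, against 67%. The causes were not tested. No named probe set changed sign in any alternative, except 1368990_at at 17.28 µM, which was not called (-0.10) and ran from -0.20 to 0.0081 with a replicate left out. Apart from those singled out from earlier results, named probe sets were chosen for moving 1 way in all dishes of their comparison. Leaving out a replicate could therefore hardly turn their sign there, and the kept signs are no separate support.
Chosen after seeing the data were the fits without the dish of control replicate 1, the weighting of dishes, and, against the other compounds, the replicates left out and the centring. Gene list counts were not run, since no gene names were used. A term for arrays split at a median of 5.4 was not run, since all 18 C.I. Direct Black arrays lie above that border. The border was set on the array medians, and whether it marks a batch was not tested.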
